A study of Mus musculus with 2 samples.

Results

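Microglia are the resident macrophages of the brain. In the healthy brain they survey tissue and synapses in what is called a homeostatic state, marked by the purinergic receptor P2ry12, the surface protein Tmem119 and a programme kept up by the receptor Csf1r, TGF-β and the factor Sall1. In tumours, ageing and inflammation they lower these genes to varying degrees and can raise Apoe, antigen presentation genes, complement and interferon-induced genes. Metformin is a biguanide taken for type 2 diabetes that is known to inhibit mitochondrial complex I and to activate the kinase AMPK.

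The cells described here are the microglia of a mouse glioma that carried few or no transcripts of complement C4b and the chemokine Ccl12. Microglia rich in these transcripts were treated as a separate set. The data are 2 single-cell libraries made with 10x Genomics 3' version 3 chemistry, 1 from mice given metformin in drinking water and 1 from mice given control drinking water. All mice were C57BL/6 with GL261, a mouse glioma line, injected into the brain. Sorted CD45-high cells came from the dissected tumour region at day 20. CD45 is a surface protein of white blood cells that microglia carry at a lower level, so the sort can set how many microglia were sampled. The labels give neither the dose, the sex of the mice nor how many were pooled, and the title of the series concerns tumour hypoxia and γδ T cells. Each group is 1 library: no test was possible, no difference has a replicate check, and differences between animals, sorts and libraries cannot be told apart from the treatment. Every interval below is at 95% and covers counting error only.

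Members were chosen by their measured counts of unique transcript molecules (UMIs). A barcode needed at least 300 detected genes and at most 10% mitochondrial UMIs. It also needed at least 3 UMIs of P2ry12 and Tmem119 together, at most 1 of C4b and Ccl12, at most 2 of Il1a, at most 1 of Cd79a, a B cell gene, and 0 of the T cell genes Cd3d, Cd3e and Cd3g. The rule took 1010 of 10041 barcodes that met the gene and mitochondrial limits, out of 11647 deposited. They were 441 of 4606 in the metformin library and 569 of 5435 in the control library. That is 9.57% (interval 8.74 to 10.5) with metformin and 10.5% (interval 9.67 to 11.3) with control water, a ratio of 0.915 (interval 0.806 to 1.04). Of all microglial barcodes, which also include those rich in C4b and Ccl12 or in Il1a, the members were 47.6% of 926 with metformin and 50.2% of 1134 with control water. At these limits neither share differed beyond counting error. The ratio over all barcodes was 0.848 (interval 0.739 to 0.973) with a mitochondrial limit of 5% and 0.854 (interval 0.761 to 0.957) with the rule on counts thinned to 3000 UMIs, and both intervals lay below 1.

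Depth was alike. Members had a median of 6236 UMIs with metformin and 6090 with control water, and 2968687 UMIs with metformin and 3560365 UMIs with control water in all. The median mitochondrial share was 3.29% with metformin and 2.82% with control water. A doublet caller marked 2 members in each library. The libraries shared 9 barcode sequences, 1 of them among the members of each.

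At the edges of the rule, 19 metformin and 13 control members held exactly 3 UMIs of P2ry12 and Tmem119, and 38 metformin and 27 control barcodes held 2. Gpr34, a microglial receptor that the rule did not use, was at 86.6 CPM (UMIs per 1000000 UMIs of the pooled cells) with metformin and 329 CPM with control water in those just inside, against 59.5 CPM with metformin and 32.3 CPM with control water in those just outside. At the other edge, members with 1 UMI of C4b and Ccl12 had Gpr34 at 1248 CPM with metformin and 1573 CPM with control water, and barcodes with 2 had 1354 CPM with metformin and 1266 CPM with control water. Fcrls, another microglial gene outside the rule, was at 113.3 CPM with metformin and 706 CPM with control water just inside the limit of 3, against 82.9 CPM with metformin and 112.9 CPM with control water just outside. These sums weigh deep barcodes most. The median depth just inside was 4279 UMIs with metformin and 1851 UMIs with control water, so shallow cells also lay there.

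Some members were deep barcodes in which P2ry12 and Tmem119 made up a very small share of the UMIs. In 29 metformin and 20 control members the share was under 0.1% (1000 CPM). They had median depths of 11730 UMIs with metformin and 12260 with control water, and held 14.9% with metformin and 7.66% with control water of all UMIs of the members. Genes of other cells were high in them and microglial genes low. Gpr34 was at 120.1 CPM with metformin and 147 CPM with control water in them, against 1509 CPM with metformin and 1701 CPM with control water in the rest. Lyz2, the lysozyme of monocytes and macrophages, was at 3728 CPM with metformin and 4626 CPM with control water in them, against 370 CPM with metformin and 338 CPM with control water in the rest. The summed level of 9 macrophage markers was 6936 CPM with metformin and 7491 CPM with control water, against 464 CPM with metformin and 427 CPM with control water in the rest. In 6 metformin and 4 control members at least 10 UMIs of Mgp, a matrix protein of fibroblast-type cells, were found, and they held 99.8% with metformin and 98.7% with control water of the members' Mgp. All but 1 of these cells, in the control library, lay under the share of 0.1%.

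**Figure D1:**
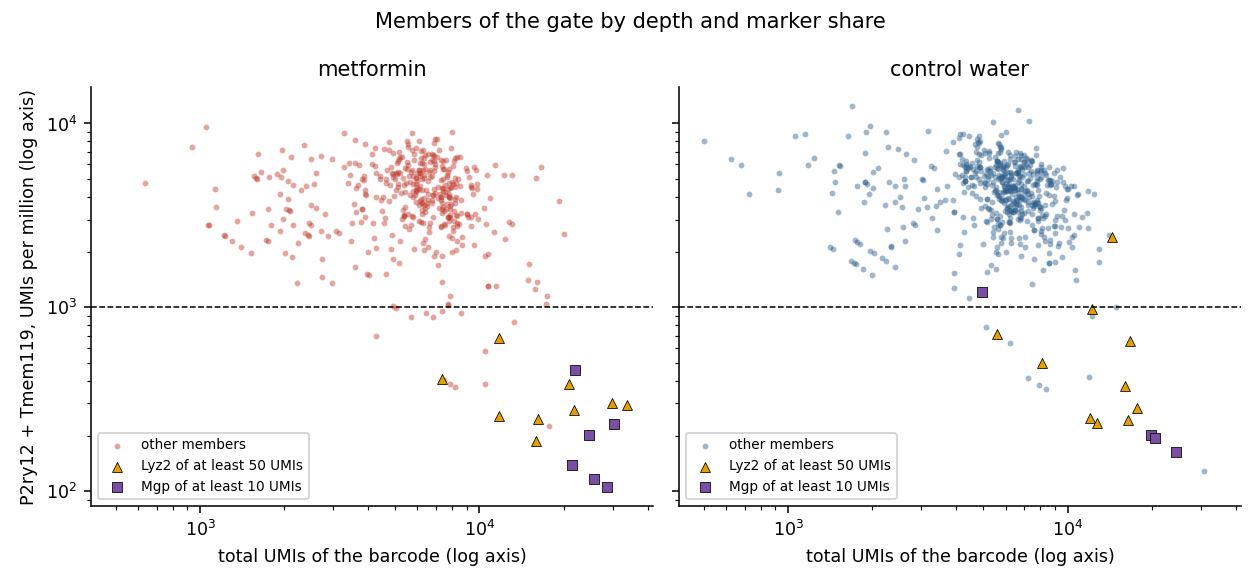
Each point is a member barcode, with its total UMIs on the horizontal log axis and its P2ry12 and Tmem119 UMIs per 1000000 on the vertical log axis, metformin on the left and control water on the right. The dashed line is at 1000 per 1000000, and the squares (at least 10 Mgp UMIs) and triangles (at least 50 Lyz2 UMIs) lie mostly below it at high depth.

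The remaining 412 metformin and 549 control members are called marker-rich below. Results are given for all members and for these, a split made after the values were seen. Their ratio of shares was 0.886 (interval 0.777 to 1.01). The markers that the rule did not use were present in nearly every cell. With each cell thinned to 2350 UMIs, Gpr34 had a UMI in 92.9% of marker-rich members with metformin and 94.2% with control water. Fcrls, an Fc receptor-like protein found in mouse microglia, had one in 91.3% with metformin and 92.8% with control water, and Cx3cr1, the receptor for the neuronal chemokine fractalkine, in 99.7% with metformin and 99.4% with control water. Among B cells thinned alike, these 3 genes had a UMI in 2.86%, 1.90% and 4.76% with metformin and in 2.66%, 1.90% and 4.18% with control water. The fructose transporter Slc2a5 was sparser, at 41.3% with metformin and 46.4% with control water, beside 0.476% with metformin and 0% with control water of B cells (0 of 527 control B cells, which allows up to 0.569%). The thinning left out 44 metformin and 51 control members that were shallower.

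Among the most abundant transcripts were lysosomal and complement genes. Cst3, the secreted protease inhibitor cystatin C, was at 43210 CPM with metformin and 45350 CPM with control water. C1qa, which starts the classical complement cascade, was at 9067 CPM with metformin and 9229 CPM with control water. Ctsd, a lysosomal protease, was at 7282 CPM with metformin and 8296 CPM with control water (ratio 0.878, interval 0.862 to 0.894). C3, the central complement protein, had 1.58 CPM with metformin and 3.65 CPM with control water, both far under C1qa. These CPM are sums of tags at the 3' end and rank transcripts without regard to length.

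Promoters of 3 homeostatic genes are shown because P2ry12 and P2ry13 lie close together on chromosome 3 and Fcrls had the lowest ratio among the 5 markers. Each runs from 250 bases before to 50 after the start in RefSeq on GRCm38.p6, on the minus strand, at chr3:59262936-59263235 for P2ry12, chr3:59210833-59211132 for P2ry13 and chr3:87263475-87263774 for Fcrls. Capitals mark GAGGAA on either strand, a core motif of the myeloid factor PU.1. It was found in 28.3% of all 32851 promoters of this length and in 3 of the 8 homeostatic genes with an entry, so a match is a description and not a site.
P2ry12: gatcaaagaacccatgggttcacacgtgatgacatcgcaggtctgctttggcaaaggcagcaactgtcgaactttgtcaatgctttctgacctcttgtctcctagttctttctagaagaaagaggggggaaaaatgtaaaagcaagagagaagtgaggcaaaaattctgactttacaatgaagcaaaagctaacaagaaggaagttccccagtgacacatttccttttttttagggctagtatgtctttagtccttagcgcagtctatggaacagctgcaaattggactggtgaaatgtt
P2ry13: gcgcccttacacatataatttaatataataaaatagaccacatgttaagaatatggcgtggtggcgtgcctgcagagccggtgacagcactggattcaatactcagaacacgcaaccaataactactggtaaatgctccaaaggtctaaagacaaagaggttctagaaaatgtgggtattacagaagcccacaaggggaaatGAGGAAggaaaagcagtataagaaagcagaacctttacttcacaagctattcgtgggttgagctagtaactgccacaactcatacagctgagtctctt
Fcrls: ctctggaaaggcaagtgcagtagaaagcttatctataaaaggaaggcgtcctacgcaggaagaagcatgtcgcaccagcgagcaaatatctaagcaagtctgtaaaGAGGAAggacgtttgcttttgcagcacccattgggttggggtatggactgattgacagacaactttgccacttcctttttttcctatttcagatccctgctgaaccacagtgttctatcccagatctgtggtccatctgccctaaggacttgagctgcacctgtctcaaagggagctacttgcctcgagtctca

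Homeostatic genes were slightly lower in the metformin members. P2ry12, which senses ADP released by damaged cells and was used by the rule, had 6558 UMIs or 2595 CPM in marker-rich metformin members and 9119 UMIs or 2774 CPM in control members, a ratio of 0.936. Tmem119, also used by the rule, was at 1564 CPM with metformin and 1572 CPM with control water. These 2 levels are a description. Of the markers outside the rule, Fcrls (chromosome 3, 87250758 to 87263738, GRCm38) was at 1538 CPM (interval 1490 to 1587) with metformin and 2011 CPM (interval 1963 to 2060) with control water, a ratio of 0.764. Its median per cell was 8 UMIs with metformin and 11 with control water, and the lower and upper quartiles were 3 and 14 with metformin and 6 and 17 with control water. The distributions of single cells therefore overlapped widely, and the intervals of the sums do not cover that spread.

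Gpr34, a receptor for lysophosphatidylserine, was at 1509 CPM with metformin and 1701 CPM with control water (ratio 0.887, interval 0.851 to 0.925). Slc2a5 was at 252 CPM with metformin and 280 CPM with control water (ratio 0.900, interval 0.812 to 0.997). P2ry13, another ADP receptor, was at 647 CPM with metformin and 683 CPM with control water (ratio 0.947, interval 0.888 to 1.01). All 5 of these genes, P2ry12 included, were lower with metformin, but by less than the 1.5-fold size used for calls, and the interval of P2ry13 included 1, as did that of Tmem119 (0.954 to 1.04). Cx3cr1 was at 3873 CPM with metformin and 4257 CPM with control water (ratio 0.910) and Csf1r, the receptor for the survival factor CSF1, at 3186 CPM with metformin and 3253 CPM with control water (ratio 0.980, interval 0.952 to 1.01). Sall1, a transcription factor that sets microglial identity, was at 298 CPM with metformin and 317 CPM with control water (ratio 0.940, interval 0.855 to 1.03). The lectin Siglech had a ratio of 0.954 and the secreted proteins Olfml3 and Sparc 0.884 and 0.922. Ecscr and Crybb1, on the same list as Olfml3 and Sparc, had 0.777 and 0.848.

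**Figure D2:**
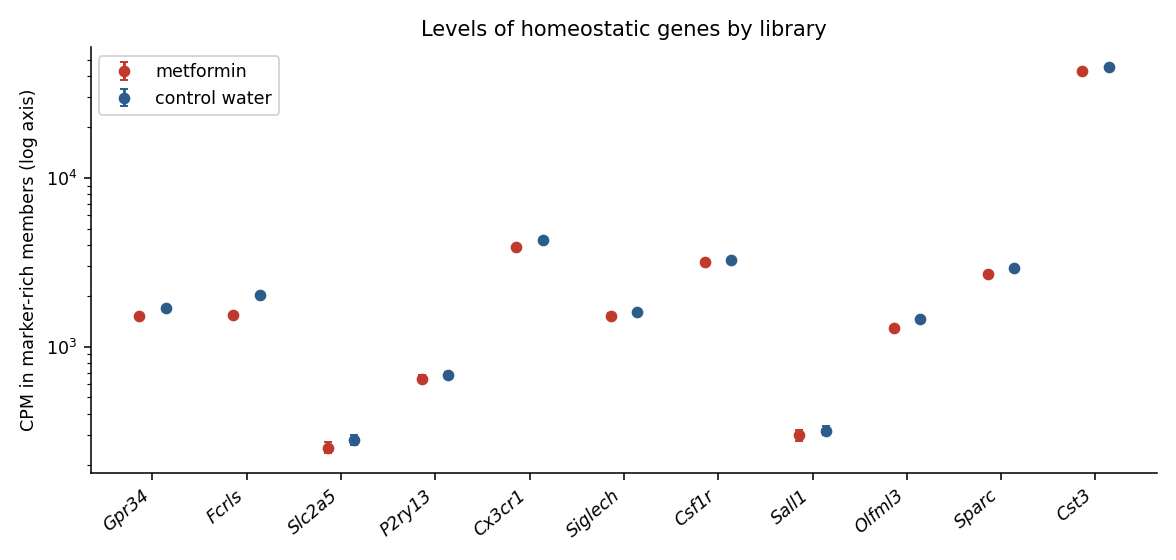
The plot gives CPM on a log axis of 11 homeostatic genes in marker-rich members, metformin to the left of control water, with points at the pooled level and bars for the counting interval (mostly smaller than the points). Fcrls shows the widest gap, at 1538 CPM with metformin and 2011 CPM with control water, and all 11 genes are lower with metformin.

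As lists, 27 of 30 homeostatic receptors and surface proteins measured at 20 CPM or more had log2 ratios under 0 in the marker-rich members. So did 18 of 19 genes on the list of secreted products and enzymes, which also holds other proteins such as Bin1 and Vsir. These 2 lists had medians of -0.081 and -0.108, beside -0.032 for all 5990 genes at that level. In all members the medians were -0.181 and -0.171, beside -0.040. The microglial transcription factors had a median of -0.065 and the purinergic and chemotactic receptors -0.105 in marker-rich members. P2ry6, a receptor for UDP that stimulates phagocytosis, went the other way with 336 CPM in metformin and 274 CPM in control members (ratio 1.22, interval 1.11 to 1.35). None of these 4 lists had a member past 1.5-fold in marker-rich members. In marker-rich microglia rich in C4b and Ccl12, the first 2 lists had medians of -0.039 and -0.006, beside -0.024 for all genes. In those rich in Il1a they had -0.179 and -0.116, beside -0.052, so low medians were not limited to the members.

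Counts of genes past 1.5-fold rested largely on the deep cells with little P2ry12 and Tmem119. Among 3084 genes with a mean of at least 50 CPM in all members, 46 (1.49%) were at least 1.5 times higher with metformin and 8 (0.259%) at least 1.5 times lower. From 20 CPM the shares were 2.12% higher and 0.821% lower. The 46 genes had a median of 64.6% of their metformin UMIs in the 29 cells under the share of 0.1%, against 14.9% over all genes. Among 3086 genes in marker-rich members, 10 (0.324%) were higher and 4 (0.130%) lower. At 20 CPM it was 0.701% each way. Of the 46 higher genes 8 were also called in marker-rich members, and of the 8 lower genes 3. The 4 lower genes in marker-rich members were Gh, Igkc, Zbtb38 and B930036N10Rik, listed after their values were seen. Gh, the growth hormone gene, was also lower with metformin in T cells (ratio 0.0109) and B cells (ratio 0.00807), so its call was not particular to the members.

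The genes with the clearest excess in all metformin members were mostly those of connective tissue. Mgp was at 1065 CPM with metformin and 197 CPM with control water (ratio 5.42), Igfbp5 and Igfbp6, which bind insulin-like growth factors, had ratios of 5.05 and 4.25, and the collagen genes Col1a1 and Col1a2 had 2.92 and 3.69. The matrix proteoglycans Dcn and Bgn had 2.96 and 2.87, the transcriptional regulator Id3 had 2.84, and Myoc had 148 CPM with metformin and no UMI with control water, 95.9% of it in 1 cell. In marker-rich members Mgp was at 1.98 CPM with metformin and 39.2 CPM with control water, where 1 cell carried most of it, and Col1a1, Col1a2 and Bgn had no UMI with metformin. The ratio of these 3, of Mgp, Igfbp5, Igfbp6, Dcn and Id3 was then below 1, with at most 5 UMIs each in the metformin members. Of the other genes among the 12 highest, Hspb1, a small heat shock protein, had 1.83 (interval 1.53 to 2.19) in marker-rich members but 1.19 where the rule was applied to counts thinned to 3000 UMIs, and Fxyd5 had 1.11 (interval 0.832 to 1.49). Ptgs2, which makes prostaglandins, had 42.7 CPM with metformin and 5.17 CPM with control water in marker-rich members, but 1 cell held 52.8% of its metformin UMIs.

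Only 3 genes met the naming rule on the lower side in all members. Plac8, a gene of monocytes and plasmacytoid dendritic cells, was at 36.0 CPM with metformin and 151 CPM with control water, and in marker-rich members at 28.5 CPM with metformin and 31.9 CPM with control water. Irf7, a factor that drives interferon genes, had a ratio of 0.540 in all members and 1.57 (interval 1.03 to 2.39) in marker-rich members. Zbtb38, a zinc finger protein that binds methylated DNA, was lower in both, at 52.6 CPM with metformin and 79.1 CPM with control water in marker-rich members (ratio 0.665, interval 0.536 to 0.823).

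**Figure D3:**
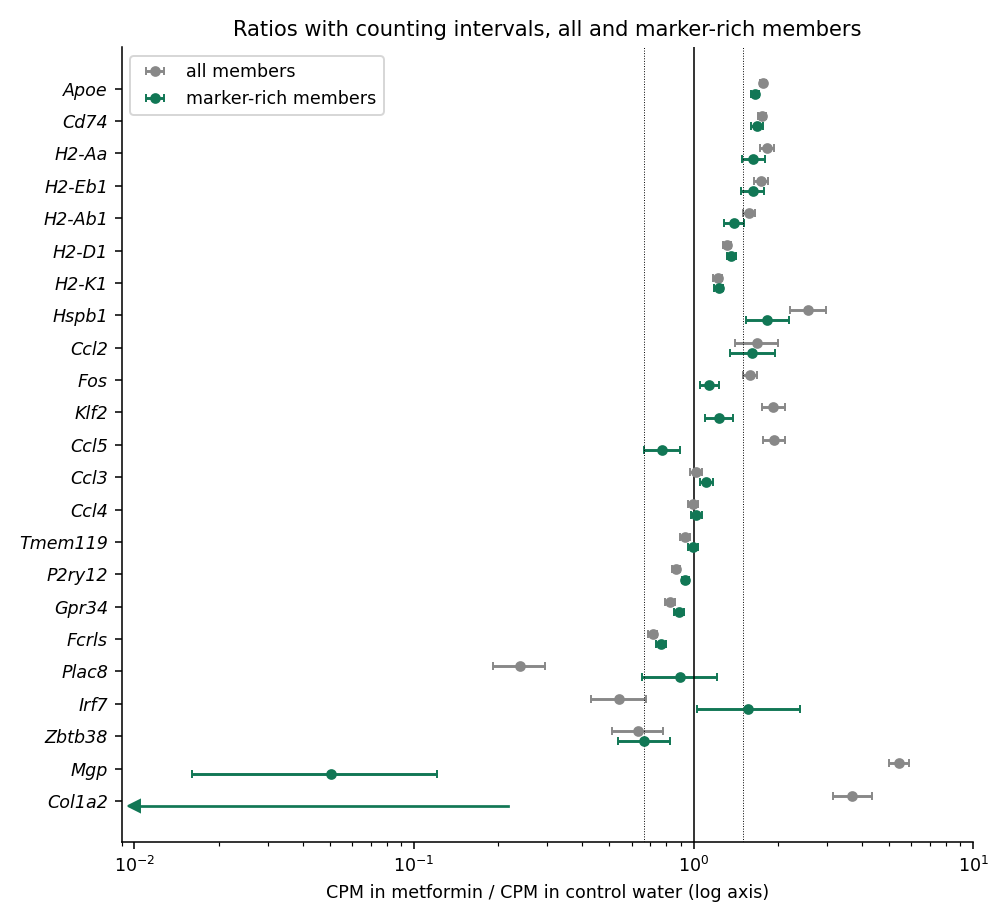
Points are ratios of metformin over control water for 23 genes on a log axis, grey for all members and green for marker-rich members, with bars for counting intervals; dotted lines mark 1.5-fold. Apoe, the class II and class I genes stay right of 1 in both sets, whereas Mgp and Col1a2 cross from above 3 to below 0.1 (an arrow marks a ratio of 0).

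Antigen presentation genes were higher with metformin, in all members and in marker-rich ones. The class II molecule, which shows peptides to CD4 T cells, is encoded by H2-Aa, H2-Ab1 and H2-Eb1 and guided by the invariant chain Cd74. Cd74 was at 1586 CPM (interval 1538 to 1636) in marker-rich metformin members and 940 CPM (interval 907 to 974) in control members, a ratio of 1.69. H2-Aa was at 402 CPM with metformin and 246 CPM with control water (ratio 1.63, interval 1.49 to 1.79). H2-Eb1 was at 395 CPM with metformin and 243 CPM with control water (ratio 1.62), and H2-Ab1 at 459 CPM with metformin and 328 CPM with control water (interval of the ratio 1.29 to 1.52). Without the richest cell of each library the 4 ratios were 1.71, 1.72, 1.71 and 1.43, so no single cell carried the difference. Where the rule allowed no C4b or Ccl12 UMI at all, the ratios of Cd74 and H2-Eb1 over all such members were 1.47 and 1.42.

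The class II signal lay in a minority of cells. With cells thinned to 2350 UMIs, 104 of 368 marker-rich metformin members (28.3%, interval 23.7 to 33.2) and 86 of 498 control members (17.3%, interval 14.1 to 20.9) had at least 3 UMIs of the 4 genes, a ratio of 1.64 (interval 1.22 to 2.20). Unthinned, it was 45.4% with metformin and 30.8% with control water. Exactly 2 or 3 such UMIs were found in 51 metformin and 54 control cells. T cells, which in mice should lack class II, passed the same limit in 5.33% with metformin and 3.23% with control water, at median depths of 8721 UMIs with metformin and 7978 UMIs with control water. Their pooled Cd74 was also higher with metformin, at 954 CPM against 444 CPM with control water (ratio 2.15), and with the 5% of T cells richest in it left out it was 62.9 CPM with metformin and 55.5 CPM with control water. In marker-rich members without their richest 5% it was 667 CPM with metformin and 332 CPM with control water. The part of these levels in the difference was not tested.

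Class I genes, which show peptides to CD8 T cells, differed less but in most members of their list. H2-D1 was at 2527 CPM with metformin and 1851 CPM with control water (ratio 1.36, interval 1.32 to 1.41), H2-K1 at 1919 CPM with metformin and 1561 CPM with control water (ratio 1.23) and H2-Q7 at 292 CPM with metformin and 221 CPM with control water (ratio 1.32). H2-T22 had 73.2 CPM with metformin and 48.4 CPM with control water (ratio 1.51, interval 1.22 to 1.88). B2m, the light chain of all class I molecules, was at 3328 CPM with metformin and 2881 CPM with control water (ratio 1.16, interval 1.12 to 1.19). Among the 20 measured class I and antigen processing genes, 16 had log2 ratios above 0, with 1 past 1.5-fold and a median of 0.232. Of 11 class II and costimulation genes 8 did, with 3 past 1.5-fold and a median of 0.396. Beside these, 0.701% of all genes at 20 CPM or more were at least 1.5 times higher, with a median of -0.032. The class I and class II genes share sequence among paralogues, so reads could be split between them.

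Apoe, which carries lipids and is raised in reactive microglia, was at 3104 CPM (interval 3035 to 3173) in marker-rich metformin members and 1874 CPM (interval 1828 to 1922) in control members, a ratio of 1.66. It was very uneven: the median cell had 1 UMI in each library, the upper quartile was 6 with metformin and 5 with control water, and the highest cells had 608 with metformin and 474 with control water. The share of thinned cells with an Apoe UMI, 52.7% with metformin and 46.4% with control water, was close to that of B cells, at 53.3% with metformin and 45.5% with control water, so nothing is read from that share. Apoe was also higher in B cells (1878 CPM with metformin, 1274 CPM with control water) and in T cells (563 CPM with metformin and 283 CPM with control water). Without the 5% of cells richest in it, B cells had 525 CPM with metformin and 514 CPM with control water. T cells then had 69.1 CPM with metformin and 41.2 CPM with control water. Marker-rich members had 1099 CPM with metformin and 739 CPM with control water. The part of the B and T cell levels in the ratio was not tested.

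Among other genes of reactive microglia, Spp1, Lpl, Cst7 and Axl were low in marker-rich members, while B2m and Trem2 were not. Spp1, osteopontin, had 382 CPM in all metformin members and 32.3 CPM in control members, with 96.1% of the metformin UMIs in 1 cell, and 6.33 CPM with metformin and 3.35 CPM with control water in marker-rich members. Lpl, which releases fatty acids from lipoproteins, was at 36.8 CPM with metformin and 39.5 CPM with control water (ratio 0.931, interval 0.705 to 1.22). The protease inhibitor Cst7 was at 25.7 CPM with metformin and 19.8 CPM with control water (ratio 1.30, interval 0.908 to 1.86). The list of disease-associated microglia genes had 1 of 15 measured members past 1.5-fold, Apoe, and a median of -0.029. Over all genes at 20 CPM or more the share was 0.701% each way and the median -0.032. Axl, a receptor that binds dying cells, was at 25.7 CPM with metformin and 11.6 CPM with control water, under the level asked of the lists. At 2350 UMIs it was found in 4.08% of metformin and 2.01% of control members, beside 2.36% with metformin and 3.42% with control water of T cells. Trem2, the receptor upstream of this state, was at 2543 CPM with metformin and 2684 CPM with control water (ratio 0.947).

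Chemokines were carried by part of the cells in both libraries. Ccl3 was at 1098 CPM with metformin and 988 CPM with control water (ratio 1.11, interval 1.06 to 1.17) and Ccl4 at 1485 CPM with metformin and 1450 CPM with control water (ratio 1.02, interval 0.981 to 1.07), both chemokines that draw T cells and monocytes. At least 5 thinned UMIs of both together were in 24.7% of metformin and 23.7% of control members (ratio 1.04, interval 0.785 to 1.38). Ccl2, which draws monocytes, was at 105 CPM with metformin and 64.8 CPM with control water (ratio 1.62, interval 1.35 to 1.95). Ccl5 had a ratio of 1.94 in all members and 0.774 (interval 0.667 to 0.897) in marker-rich ones, where 1 cell held 37.1% of its UMIs with metformin and 1 held 48.7% with control water. Without these cells the marker-rich ratio was 0.95. Cxcl10, an interferon-induced chemokine for T cells, had 0.689 in all members and 1.15 (interval 1.02 to 1.29) in marker-rich ones. The list of inflammatory cytokines and chemokines had 4 of 20 measured genes past 1.5-fold upward (Ccl2, Cxcl2, Osm and Ptgs2, listed after their values were seen) and none downward in marker-rich members, with a median of 0.116, beside 0.701% of all genes each way at that level. For Cxcl2, 1 cell held 50.9% of the metformin UMIs, and its ratio was 2.76, or 1.65 without the richest cells. In T cells Cxcl2 was at 40.4 CPM with metformin and 7.29 CPM with control water (ratio 5.55). A UMI of it was found in 3.89% of metformin and 2.6% of control T cells. B cells went the other way, at 26.4 CPM with metformin and 105.4 CPM with control water (ratio 0.251). Osm had a ratio of 1.62, or 1.396 without the richest cells.

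Interferon lists lay near the median of all genes in marker-rich members. The type I response list had a median of -0.044 with none of 16 measured genes past 1.5-fold, and the interferon-gamma list -0.045 with 0 higher and 1 lower of 9. All genes at 20 CPM or more had a median of -0.032, with 0.701% past 1.5-fold each way. In all members the medians of these interferon lists were -0.160 and -0.144. At least 3 thinned UMIs of 6 interferon-induced genes were in 4 of 368 metformin and 6 of 498 control members.

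The list of early activation genes, which dissociation of tissue also induces, had a median of 0.222 in all members and 0.135 in marker-rich ones. Ccl3 and Ccl4, also on this list, went the other way. Their ratios were 1.02 and 0.998 in all members and 1.11 and 1.02 in marker-rich members. Fos had a ratio of 1.59 in all members and 1.14 (interval 1.06 to 1.23) in marker-rich members, where it was at 505 CPM with metformin and 442 CPM with control water. Klf2 had 1.93 in all members and 1.23 (interval 1.10 to 1.39) in marker-rich ones, and Egr1 1.11 in all members and 0.922 in marker-rich ones. Rgs1, which damps chemokine receptor signals, was at 560 CPM with metformin and 430 CPM with control water (ratio 1.30, interval 1.21 to 1.403), and Ier3 at 221 CPM with metformin and 330 CPM with control water (ratio 0.668, interval 0.602 to 0.741). The list had 2 of 33 measured genes past 1.5-fold in marker-rich members, with a median of 0.135. These genes were Egr3 and Hspb1, listed after their values were seen. Of all genes at 20 CPM or more 0.701% were past 1.5-fold each way, with a median of -0.032. The thinned share of cells with at least 3 UMIs of Fos, Fosb, Egr1 and Nr4a1 was 29.3% with metformin and 31.1% with control water.

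Lists nearest to metformin's known targets had no gene past 1.5-fold, and those of the respiratory complexes had medians above that of all genes (-0.032). Of 44 measured genes of complex I, 25 had log2 ratios above 0 and none was past 1.5-fold, with a median of 0.029. Of 43 genes of complexes II to V, 27 did, with none past 1.5-fold and a median of 0.073. Among them the mitochondrial transcripts mt-Nd1, mt-Co1 and mt-Atp6 had ratios of 1.10, 1.17 and 1.23, and the mitochondrial share of all UMIs in marker-rich members was 3.42% with metformin and 3.03% with control water. The 11 genes of AMPK, its upstream kinases and targets had a median of -0.018. The 22 genes of hypoxia and glycolysis had a median of -0.025, also with none past 1.5-fold. Hif1a, the oxygen-regulated factor, had a ratio of 1.06 (interval 0.901 to 1.24), Ldha, which makes lactate, 0.956 (interval 0.834 to 1.10), and Txnip, which lowers glucose uptake, 1.02 (interval 0.947 to 1.10).

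**Figure D4:**
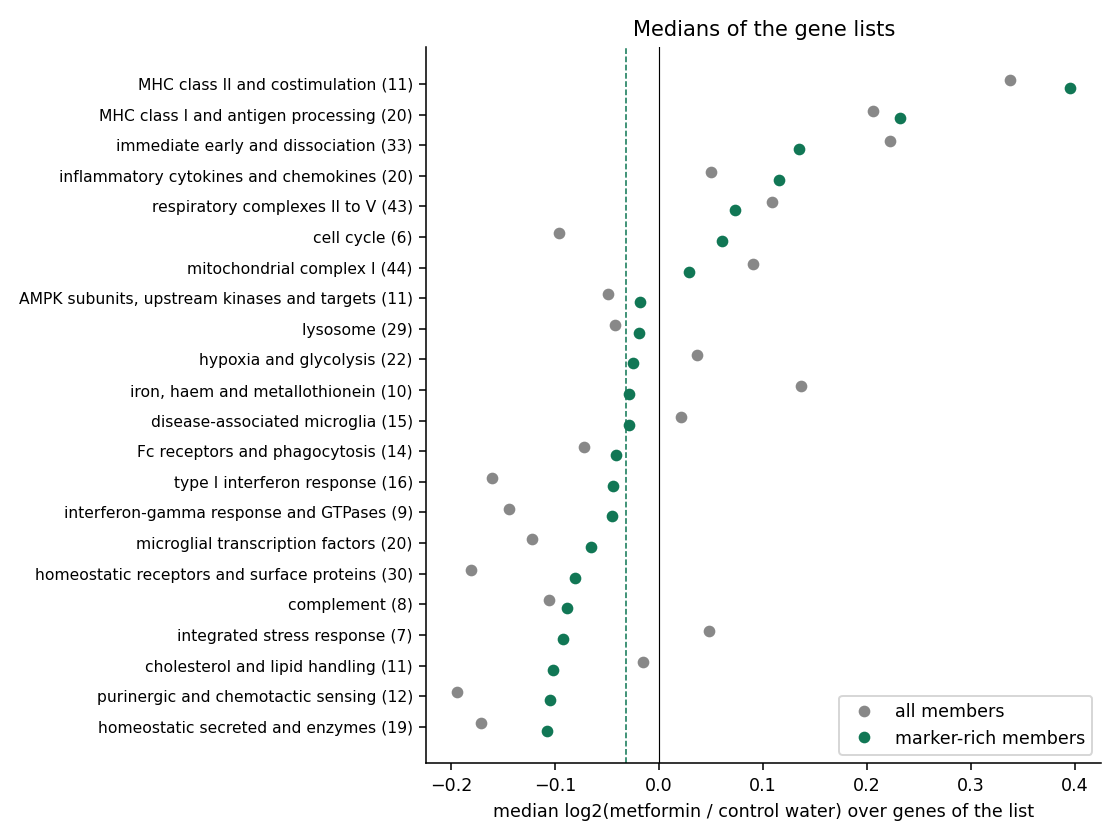
Each row is a gene list with the number of its genes measured at 20 CPM or more in marker-rich members; points are medians of log2 ratios of metformin over control water, grey for all members and green for marker-rich members. The dashed line is the median of all genes in marker-rich members, -0.032, and the class II and class I lists lie farthest to the right at 0.396 and 0.232.

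The members were also set against the microglia rich in C4b and Ccl12, within each library, in marker-rich barcodes of both states. These were 278 metformin and 371 control barcodes, with median depths of 8112 UMIs with metformin and 8106 UMIs with control water, against 6132 with metformin and 6031 with control water in marker-rich members. The limit on C4b and Ccl12 is a number of UMIs, which shallower cells meet more readily. Values here are a description. Of 3083 genes outside the rule, 1 (0.0324%) was at least 2 times higher in the members in both libraries, the predicted gene Gm13889 (named after its value was seen), and 17 (0.551%) at least 2 times lower. In all members it was 12 (0.389%) and 19 (0.617%) of 3081, and the matrix genes Mgp, Igfbp5, Col1a1 and Dcn were among the higher ones.

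Homeostatic receptors were moderately higher in the members in both libraries. Gpr34 was 1.48 times higher with metformin and 1.47 times with control water, Fcrls 1.42 times with metformin and 1.54 times with control water, Slc2a5 1.44 times with metformin and 1.51 times with control water and P2ry13 1.43 times with metformin and 1.47 times with control water. Klf2, a factor of quiescent myeloid cells, was 1.70 times higher in each. The microglial transcription factor list had medians of 0.355 with metformin and 0.428 with control water on the log2 scale and the receptor list 0.358 with metformin and 0.305 with control water, beside 0.166 with metformin and 0.173 with control water over all genes. The list of secreted products and enzymes had 0.161 with metformin, no higher than all genes, and 0.272 with control water. Olfml3 was 1.004 times its level in the C4b and Ccl12-rich cells with metformin and 1.17 times with control water.

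Genes of antigen presentation and of the interferon response were lower in the members. Cd74 in the members was 0.212 of that in the C4b and Ccl12-rich cells with metformin and 0.154 with control water, and H2-Aa 0.191 with metformin and 0.139 with control water. Ifitm3, an antiviral membrane protein, was 0.193 in each library, and the chemokine Ccl2 0.289 with metformin and 0.188 with control water. Bst2, Ifi27l2a, Lgals3bp and Ly6a, all induced by interferon, were between 0.252 and 0.444. Apoe was 0.470 with metformin and 0.315 with control water. The type I interferon list had medians of -1.37 with metformin and -1.32 with control water, and the class II list -0.472 with metformin and -0.649 with control water. In C4b and Ccl12-rich cells the ratios of metformin over control water were 1.22 for Cd74, 1.19 for H2-Aa and 1.11 for Apoe, against 1.69, 1.63 and 1.66 in the members. Whether the 2 states differ in these ratios was not tested, with 1 library each.

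Il1a-rich microglia, 93 metformin and 115 control barcodes with the marker share, stood lowest in homeostatic genes. This set had no limit on C4b and Ccl12, so it could also hold cells rich in them. Its cells were deeper, with medians of 10010 UMIs with metformin and 9786 UMIs with control water. Gpr34 was at 1509 CPM in the members, 1018 CPM in C4b and Ccl12-rich cells and 766 CPM in Il1a-rich cells with metformin. With control water the order was the same, at 1701, 1155 and 900 CPM. Cx3cr1 and P2ry13 had the same order in both libraries. Fcrls in control water did too, while with metformin its C4b and Ccl12-rich and Il1a-rich levels, 1082 and 1071 CPM, did not differ beyond counting error.

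**Figure D5:**
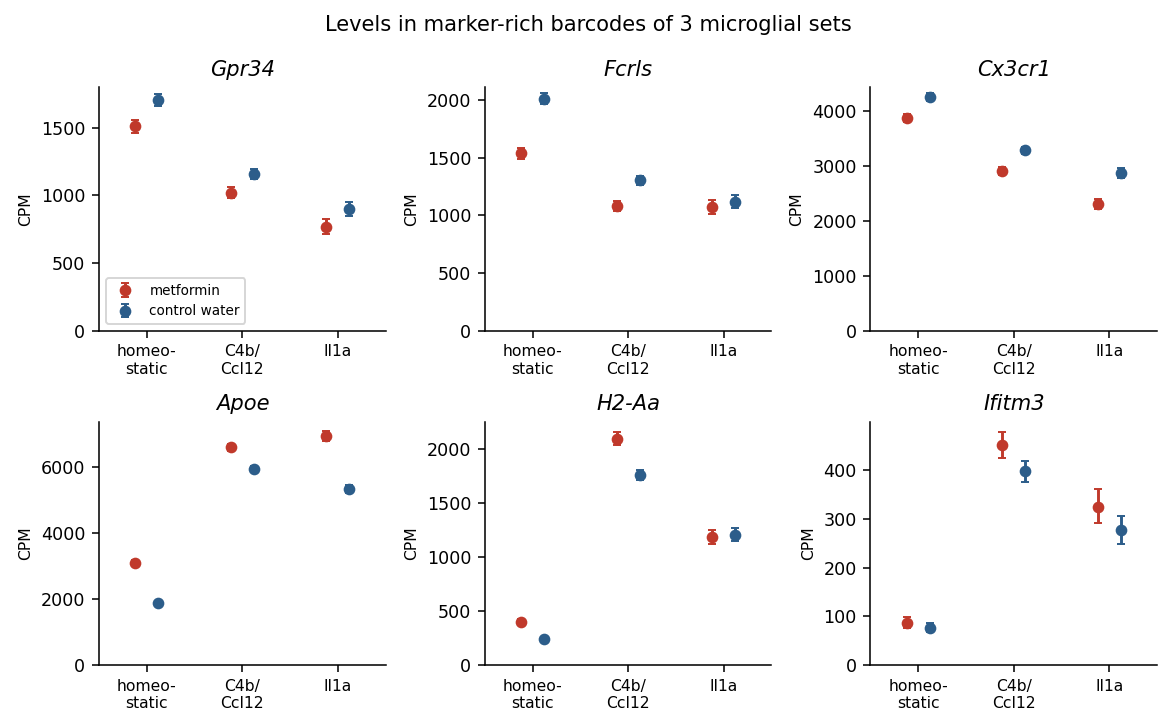
Panels give the CPM of 6 genes in marker-rich members (homeostatic), microglia rich in C4b and Ccl12, and microglia rich in Il1a, metformin in red to the left of control water in blue, with counting intervals. The 3 homeostatic genes above are highest in the members, and Apoe, H2-Aa and Ifitm3 below are lowest in them in both libraries.

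Marker sums of other cells were also taken in marker-rich members. The highest was that of 8 plasmacytoid dendritic cell markers, which include the microglial gene Siglech, at 2720 CPM with metformin and 2791 CPM with control water, beside 2240 CPM with metformin and 2361 CPM with control water in B cells. B cells were 211 of the metformin barcodes and 536 of the control barcodes, and the 8 B cell markers summed to 386 CPM with metformin and 582 CPM with control water in marker-rich members (ratio 0.663, interval 0.613 to 0.717). Igkc, the antibody kappa light chain and 1 of the 8, was alone at 11.1 CPM with metformin and 159 CPM with control water. It made up most of that gap. NK cell markers summed to 245 CPM with metformin and 194 CPM with control water (ratio 1.26), macrophage markers to 464 CPM with metformin and 427 CPM with control water (ratio 1.09, interval 1.004 to 1.17) and the 8 GL261 glioma markers to 17.0 CPM with metformin and 13.99 CPM with control water. Their part in the results was not tested. The macrophage markers were 15540 CPM with metformin and 14790 CPM with control water in macrophages, barcodes with C1q and no P2ry12 or Tmem119 UMI.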

How the data were processed

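Single-cell RNA libraries of CD45-high cells from the tumour region were read from their deposited count matrices, 1 for metformin and 1 for control water. The authors' UMI counts come from Cell Ranger, with Seurat and mm10 also named, per the submitters' processing notes; the matrix headers give version 3.0.0. The deposited matrices held 47142356 UMIs in 5473 barcodes with metformin and 49651404 UMIs in 6174 barcodes with control water. Of 31053 gene identifiers, 30934 matched GENCODE M21, whose coordinates are on GRCm38. Ambient RNA was not subtracted, and doublet calls (Scrublet in scanpy 1.11.5, expected rate 5%) were kept: 37 and 62 barcodes.

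UMIs were summed over the cells of a set in each library and given as CPM with exact Poisson intervals, ratios with exact conditional intervals and shares with Clopper-Pearson intervals, all at 95%. UMIs are counted molecules, so these intervals cover counting error only, not the spread between cells or animals. A gene was called past 1.5-fold among those with a mean of at least 50 CPM; lists were counted at 20 CPM, with 0.5 UMI added for log2. Genes named for size were the 12 farthest each way by the interval's bound nearest 1 among called genes that stayed past 1.5-fold without the richest cell, beside homeostatic genes and up to 4 per list. The calculation was tested on simulated data. The members and the gene lists were chosen with earlier results of these data known, and the share of 0.1% was set after seeing them. Alternatives changed the limits, the scaling, the weighting of cells and the filters. Python 3.11.15, numpy 2.4.6, scipy 1.17.1 and pandas 2.3.3 were used. Some genes are not reported here.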

Additional observations from a re-analysis of the deposited data

How the results depend on the processing

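The ratio of shares lay between 0.848 and 0.971 under 9 alternatives. Its interval lay below 1 with the mitochondrial limit of 5% (0.739 to 0.973) and with the rule on thinned counts (0.761 to 0.957), and included 1 under the other 7. Counts of genes past 1.5-fold, 46 higher and 8 lower, moved more: 12 were higher and 12 lower with a mitochondrial limit of 5%, 30 higher and 5 lower with at least 5 UMIs of P2ry12 and Tmem119, and 34 higher and 21 lower with no C4b or Ccl12 UMI. There were 8 higher and 7 lower with the rule on counts thinned to 3000 UMIs, 10 higher and 4 lower in marker-rich members, and 26 higher and 5 lower without each gene's richest cell. A mean over cells gave 19 higher. Genes from 20 CPM gave 129 higher and 50 lower, and no filter 3020 and 2603. Of the 46 higher genes 10 were shared under the 5% limit and 7 under the thinned rule, and of the 8 lower genes 7 and 1. Genes higher in members than in C4b and Ccl12-rich cells were 3 with the thinned rule and 1 in marker-rich barcodes, against 12.

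Ratios that changed direction were mostly those of matrix genes. With the 5% limit Mgp had 0.0510, Igfbp6 0.286, Col1a2 0.0548, Dcn 0.263 and Id3 0.263, and Igfbp5, Col1a1 and Bgn 0. With the thinned rule Mgp had 0.0786, Igfbp5 0.0162, Igfbp6 0.393, Col1a2 0.0553, Col1a1 0.0577, Dcn 0.796, Bgn 0, Fxyd5 0.918, Cxcl2 0.704, Plac8 1.20 and Irf7 1.49. In marker-rich members Mgp had 0.0504, Igfbp5 0.0165, Igfbp6 0.325, Dcn 0.781, Id3 0.390, Ccl5 0.774 and Irf7 1.57, and Col1a1, Col1a2 and Bgn 0. List medians turned to 0.002 (type I interferon) and 0.001 (interferon-gamma) with at least 5 UMIs, to 0.137 and 0.138 with the thinned rule, and for iron genes to -0.036 with the 5% limit and -0.029 in marker-rich members. The 6 metformin members with at least 10 Mgp UMIs had mitochondrial shares of 6.22% to 9.22%, above the 5% limit. Among the 4 such control members the shares were 3.31% to 9.065%, and 1 of them was marker-rich. What caused the changes of direction was not tested. Scaling by the median of ratios gave 48 higher and 7 lower, and scaling without mitochondrial and ribosomal genes 61 and 11. No paired analysis was possible because each group is 1 library. Genes under 20 CPM rest on few UMIs.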

Other observations

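Gh, growth hormone of the pituitary, was at 1.19 CPM with metformin and 99.2 CPM with control water in marker-rich members. In T cells it was at 0.880 CPM with metformin and 80.6 CPM with control water. It had a UMI in 0.738% of all metformin barcodes that met the limits and 24.9% of such control barcodes, and 1 control barcode held 53611 of its UMIs. Igkc, the kappa light chain of antibodies, was at 11.1 CPM with metformin and 159 CPM with control water in marker-rich members, and was not compared alone in other cells. In B cells the 8 B cell markers, Igkc among them, summed to 14640 CPM with metformin and 55110 CPM with control water.

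Exosc2, a subunit of the RNA exosome, had the highest ratio of the genes called in marker-rich members. It was at 230 CPM with metformin and 110 CPM with control water (ratio 2.08, interval 1.82 to 2.38), or 2.18 without the richest cells. At 2350 UMIs it was found in 10.6% of metformin and 8.84% of control members, beside 8.73% with metformin and 8.64% with control water of T cells. AW112010, a long transcript known for its induction in activated immune cells, was at 144 CPM with metformin and 87.3 CPM with control water (ratio 1.65, interval 1.41 to 1.93). For AW112010, 1 cell held 18.5% of the metformin UMIs, and the ratio was 1.51 without the richest cells. Both were named after their values were seen.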
